A study of Homo sapiens with 4 samples.

Results

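The cytosolic ribosomal proteins are the protein part of the ribosome, and this is an account of their transcripts in 4 populations of H1299 lung cancer cells. Members were every gene whose array symbol is RPL or RPS followed by a number and, for some, a short suffix, together with RPLP0, RPLP1, RPLP2 and RPSA. The rule uses names only and no measured value. It took 34 genes with 49 probes, out of 15240 named genes and 30968 probes on the array. Of the members, 24 carry a large subunit (RPL) symbol and 10 a small subunit (RPS) symbol.

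Ribosomal proteins assemble with ribosomal RNA into a large and a small subunit, the first of which joins amino acids while the second reads the messenger RNA. Most of their transcripts begin with a stretch of C and T bases, the terminal oligopyrimidine or TOP motif, through which growth signals relayed by the kinase mTOR adjust how strongly they are translated. Several members have a second gene copy or a paralog that is used in particular tissues, and RPS27L is a paralog of RPS27.

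H1299 cells derive from a human non-small cell lung carcinoma. The cells had been stably transfected with a vector in which a promoter of Oct4, a regulator of pluripotency, or of nestin, a protein of neural progenitors, drives GFP. The Oct4/GFP (+) and Nestin/GFP (+) populations were sorted for high GFP and their RNA was taken after 24 h. The Oct4/GFP (−) and Nestin/GFP (−) populations are called negative for the same reporters, and the study's methods describe sorting transfected lines into cells with high and with no GFP, while the labels call these samples negative for the reporter vectors, so the labels alone do not say whether they carried one. The study's methods also describe neomycin selection of transfected cells. No other allele, drug or treatment is given for any of the 4. GFP here reports the activity of an introduced promoter and not the Oct4 or nestin protein itself.

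Each population was hybridized to 1 array with the Cy3 dye, so no difference below has a replicate check and no p-value is given for a comparison of 2 arrays. The deposited values are background-subtracted intensities, and their noise SD, taken from the values below 0, ran from 4.62 to 7.57. A probe was called above background when its intensity passed 3 noise SD, which was a limit of 13.9 to 22.7 depending on the array. Between 19.5% and 29.1% of all probes passed it, and the median intensity of an array was 4 to 9, so the measurements rest on the brighter probes. Intensities were then quantile-normalized, which gives the 4 arrays the same distribution, and anything below the limit was set to the smallest normalized intensity that passed it (17.25 for Oct4/GFP (+), 18.5 for Nestin/GFP (+), 30.5 for Oct4/GFP (−) and 16.25 for Nestin/GFP (−) cells). Differences are called measured where both arrays were above the limit, and where only 1 was they are bounds, written as "at least". A gene counts as above the limit where any of its probes is, so the mean of a gene with several probes can take in a probe at the floor, and such genes are given per probe as well. VIM, which the line is known to express, was above background on all 4 arrays, while the probe for the nestin gene NES was above background on none and no probe is named for Oct4. Of 8 marker genes of leukocytes, fibroblasts and endothelium, PTPRC, CD3E, COL3A1 and CDH5 were above background on no array, and CD14, COL1A1, DCN and PECAM1 on 1 or 2 arrays. In a bulk RNA sample, fewer cells of a kind and less RNA per cell cannot be told apart.

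Only part of the family could be followed. The RefSeq table holds 86 protein-coding symbols that the rule would take, of which 33 have a probe named here and 53 do not. The P stalk genes RPLP0, RPLP1 and RPLP2, RPSA, the S6 kinase substrate RPS6, and RPL5, RPL11 and RPL23 are among those with no named probe, as are RPS27, RPL39, RPL7 and RPL3, the partners of 4 paralogs that are on the array. In all, 13571 probes carry no gene name. The other member, RPS26L1, is an old symbol that RefSeq now lists as a transcribed pseudogene. Probes of this family can also take up signal from near-identical pseudogenes and copies, which was not tested.

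The TOP motif is shown first because it divides the members by their start sites, independently of any array value. RefSeq start-site windows (GRCh38.p14) were found for 26 of the 34 members. Each line gives 20 bases before the start and 10 from it, on the strand of the gene, and capitals mark the unbroken run of C and T that contains the first transcribed base, where it is 5 bases or longer. The first 5 belong to members with such a run and the last 3 to paralogs without one.
RPL13A, chr19:49487588-49487617, plus strand: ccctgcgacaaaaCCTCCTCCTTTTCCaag
RPL29, chr3:51995886-51995915, minus strand: tgctgcaccgcagCCCCTTTCTCTTCCggt
RPL22, chr1:6199586-6199615, minus strand: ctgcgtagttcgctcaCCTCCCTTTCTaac
RPL28, chr19:55385912-55385941, plus strand: tcgcctcgcccctcgCCTTCCTCTTTCCgt
RPS13, chr11:17077658-17077687, minus strand: ggcgtttccactctcgCTCTCCTTTCgttg
RPS27L, chr15:63157468-63157497, minus strand: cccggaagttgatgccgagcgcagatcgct
RPL7L1, chr6:42879596-42879625, plus strand: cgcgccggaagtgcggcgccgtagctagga
RPL10L, chr14:46651772-46651801, minus strand: gcgcgcaggcgtagttaagagagcgcattt

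A run of 5 or more pyrimidines over the start was present in at least 1 window of 19 of the 26 members (73.1%), against 11.9% of the 27305 genes with a window. The first transcribed base was C in 63.6% of the member windows and in 14.7% of all windows. The 7 members without a run were RPL10L, RPL15, RPL4, RPL7L1, RPS27L, RPS4X and RPS4Y2. Of these, RPL10L, RPL7L1, RPS27L and RPS4Y2 are paralogs or copies, while RPL22L1 is a paralog whose window does hold a run. The windows depend on the annotated start, which was not measured in these cells.

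Most members were detected. At least 1 array was above background for 28 of 34 members (82.4%), against 50.8% of all named genes, and all 4 arrays for 23 members (67.6%), against 18.7% of all named genes. Those 23 were 16 large subunit and 7 small subunit genes. The 6 members above background on no array were RPL14, RPL22L1, RPL3L, RPS25, RPS26L1 and RPS4Y2. RPL3L, which takes the place of RPL3 in muscle, and RPS4Y2, a Y-linked copy, are genes of other tissues, whereas RPL14 and RPS25 are general ribosomal proteins, so an undetected probe here says nothing of the transcript. Members above background numbered 23 in Oct4/GFP (+) cells, 28 in Nestin/GFP (+) cells and 26 in each GFP (−) population. Of all probes, 27.9% passed in Oct4/GFP (+) cells and 26.3% in Nestin/GFP (+) cells. In Oct4/GFP (−) cells 19.5% passed and in Nestin/GFP (−) cells 29.1%, each at the limit of its own array. The part of the array in these counts was not tested.

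**Figure D1:**
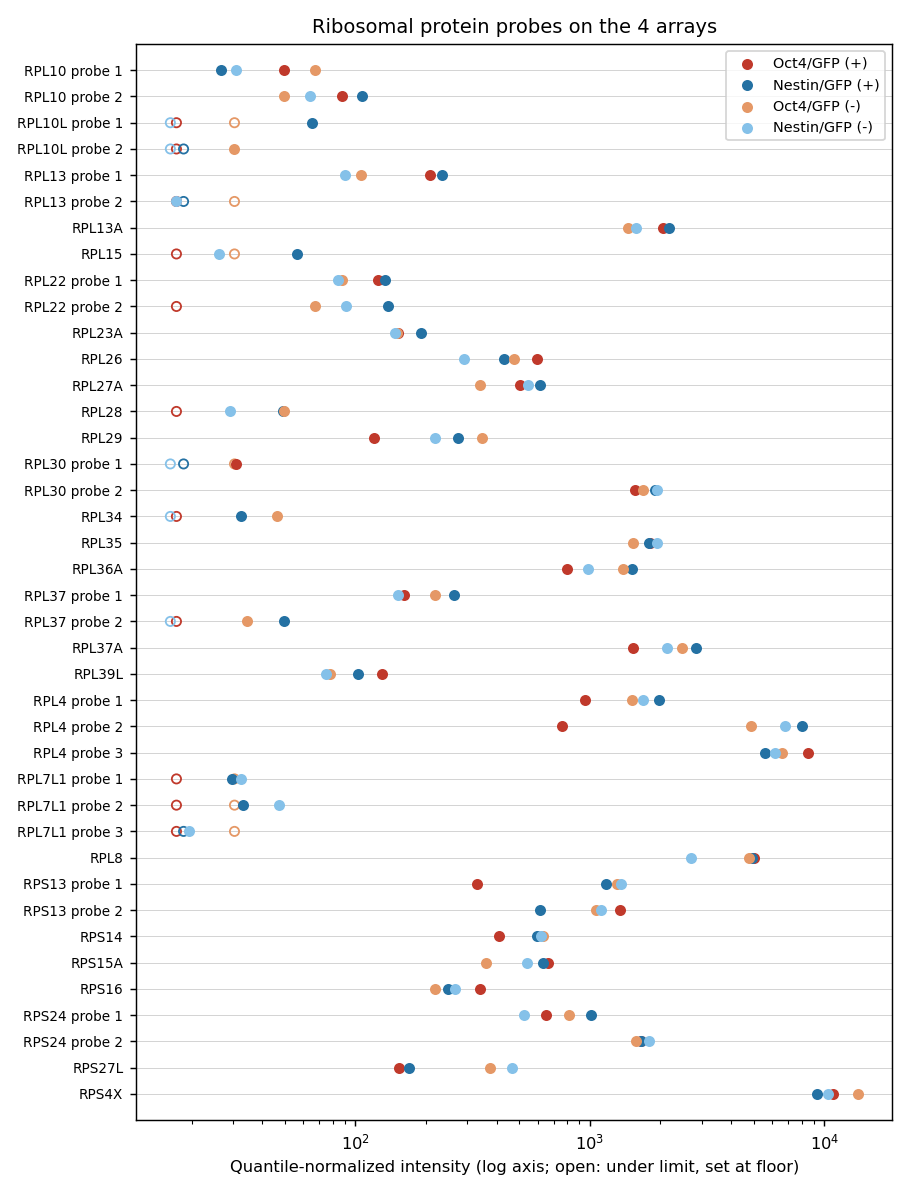
Quantile-normalized intensity (x axis, log scale, no unit) of each member probe above background on at least 1 array, one row per probe and one point per array, with open circles for values under the background limit. The levels of different probes cannot be compared with each other; within a row, RPS27L shows both GFP (+) arrays (153 and 168.5) below both GFP (−) arrays (374 and 466.5).

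The clearest difference with GFP state belonged to RPS27L. Its normalized intensity was 153 in Oct4/GFP (+) cells and 374 in Oct4/GFP (−) cells, 2.44-fold lower in the GFP (+) population (log2 difference -1.29). In the nestin line it was 168.5 in the GFP (+) and 466.5 in the GFP (−) cells, 2.77-fold lower (log2 -1.47). On the normalized values both GFP (+) arrays therefore lay below both GFP (−) arrays, and the reporter lines lay close together within each GFP state. RPS13 and RPS14 shared that order of GFP (+) and GFP (−) arrays on their means over probes. As deposited, the intensities were 102 and 288 in the Oct4/GFP (+) and Nestin/GFP (+) cells and 117 and 579 in the respective GFP (−) cells. The array scale decides the size of the difference, which was -0.20 on the log2 scale in the Oct4 line on the values as deposited and -0.64 in the nestin line with each array centred on its median. Set against the median of the family on the same arrays, RPS27L was lower by 1.24 on the log2 scale in the Oct4 line and by 1.82 in the nestin line under the main processing, and by 1.01 to 1.53 and 1.45 to 1.84 over all the processing settings tried. It has 1 probe.

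RPS27L was the only one of the 23 members above background on all 4 arrays that was past 2-fold lower in the GFP (+) cells of both lines, and no member was past 2-fold higher in both. Among all 2853 genes above background on all 4 arrays, 13 were lower past 2-fold in both lines (0.456%) and 14 were higher in both (0.491%). Its mean difference over the 2 lines, -1.38, was the 37th from the lowest of the 2853 genes. An additive limma fit with reporter and GFP state as terms, which leaves 1 residual degree of freedom, called no gene for either term after Benjamini-Hochberg adjustment (0% of 2853 genes). For RPS27L the GFP term was -1.38 (SE 0.40) with an adjusted p of 0.996 in this limma fit. All 23 members had that same adjusted value for the GFP term, and no gene had a smaller one. Without adjustment 68 genes (2.38%) were under 0.05 for the GFP term and 384 (13.5%) for the reporter term, of which 1 and 0 were members.

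The rest of the family did not move as a block with GFP. Of the 23 members, 9 were higher in GFP (+) cells of both lines, 4 were lower in both and 10 had opposite signs, and signs were opposite in 53.5% of all 2853 genes. These signs are those of the normalized values and shift with the scale of the arrays. The 4 lower in both were all small subunit genes, namely RPS27L, RPS13, RPS14 and RPS4X. The second probe of RPS13 was higher in GFP (+) cells of the Oct4 line (log2 0.33), so its place rests on the mean over probes. The 9 higher in both were RPS15A and 8 large subunit genes, RPL10, RPL13, RPL13A, RPL23A, RPL26, RPL27A, RPL39L and RPL8. The first probe of RPL10 was lower in the Oct4 and nestin lines (log2 -0.429 and -0.213) and its second higher (0.815 and 0.741). Over probes above background on both arrays only, RPL22 (log2 0.51 and 0.64) was also higher in both and RPL30 (-0.12 and -0.02) lower in both. RPL39L, a paralog of RPL39 known for its level in the testis, was 130 and 102 in the GFP (+) and 78 and 75 in the GFP (−) cells of the Oct4 and nestin lines (log2 0.73 and 0.45). Both of its GFP (+) values were above both GFP (−) values. RPL13A, which also has a role in silencing inflammatory transcripts after interferon, was 2045 and 2179 in the GFP (+) and 1447 and 1580.0 in the GFP (−) cells (log2 0.50 and 0.46), again with no overlap on the normalized scale. The same order held on means over probes for RPL8, RPL13, RPL23A and RPS15A, and the reverse order for RPS27L, RPS13 and RPS14. How many of all genes show such an order was not counted.

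**Figure D2:**
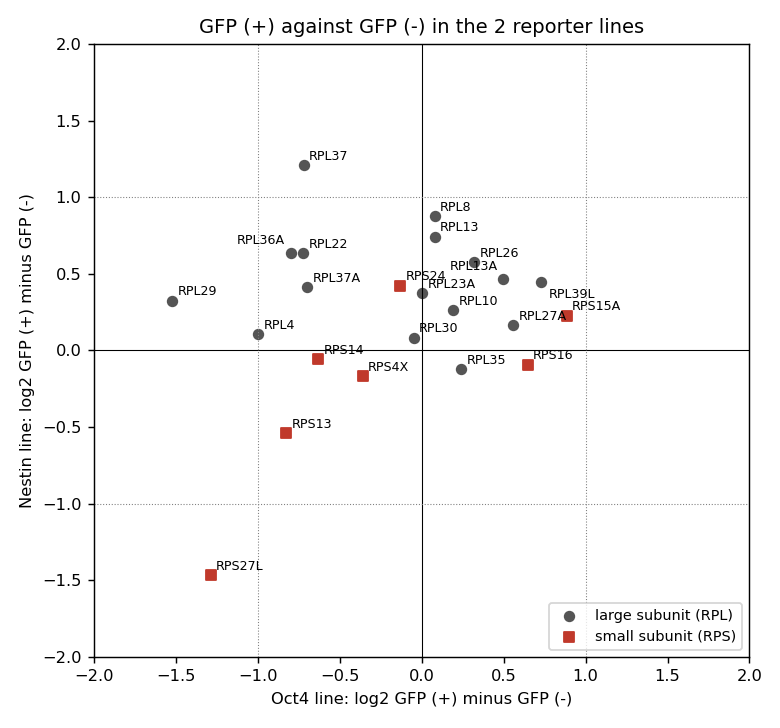
Log2 difference of GFP (+) minus GFP (−) cells in the Oct4 line (x axis) and the nestin line (y axis) for the 23 members above background on all 4 arrays, with large subunit genes as circles, small subunit genes as squares and dotted lines at 2-fold. Each point is the mean over the probes of a gene. RPS27L alone lies past 2-fold lower in both (-1.29 and -1.47), and RPL29 lies far from the diagonal.

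Nestin/GFP (+) cells were compared with Nestin/GFP (−) cells to ask what goes with nestin promoter activity. Here 3 of 28 members compared were past 2-fold higher (10.7%, against 6.97% of all genes) and 1, RPS27L, was lower (3.57%, against 5.48%). Of the 26 measured members, 19 were above 0 (73.1%, against 52.1% of all genes), and their median log2 difference was 0.35 (range -1.47 to 1.21), against 0.03 over 4655 genes. The upward differences lay in the large subunit genes, 17 of 19 of which were above 0 with a median of 0.45, whereas 2 of 7 small subunit genes were above 0 with a median of -0.09. With arrays centred on their medians 18 members were past 2-fold higher (against 25.6% of all genes) and 0 lower (against 2.13%). In that setting 6 of 7 small subunit genes were above 0. On the values as deposited 8 members were higher (against 12.8%), 1 was lower (against 4.72%) and 5 of 7 small subunit genes were above 0. Members differ in probe and brightness and are not replicates, so these medians describe the arrays only.

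RPL13, a large subunit protein, had the highest difference on a probe above background on both arrays, 235 in Nestin/GFP (+) and 90.0 in Nestin/GFP (−) cells (log2 1.39, 2.61-fold). Its second probe was under the limit on the Nestin/GFP (+) array and just over it on the other, with deposited intensities of -8 and 22, and the mean of both was 0.74. RPL37, a zinc-binding protein of the large subunit, had the highest mean over probes. Its first probe was 264.5 in Nestin/GFP (+) and 152 in Nestin/GFP (−) cells and its second 49.75 and under the limit, which together gave a log2 difference of 1.21. On the probe above background on both arrays alone it was 0.80, under 2-fold. RPL15, one of the genes mutated in Diamond-Blackfan anemia, was 56.5 against 26.25 (log2 1.11, 2.15-fold) at intensities close to the limit. RPL10L, an intronless copy of RPL10 known from the testis, was above the limit on the Nestin/GFP (+) array with a deposited intensity of 101, against 7 on the Nestin/GFP (−) array, and was at least 4.02-fold higher on this probe. Its second probe was under the limit on both arrays and bounds nothing.

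RPL8, which lines the peptidyl transferase centre, was 4932 in Nestin/GFP (+) and 2686 in Nestin/GFP (−) cells (log2 0.88). The Nestin/GFP (−) array was the low one of the 4, since the Oct4/GFP arrays read 5027 and 4758.5. RPL28 was 49.25 against 29.25 (log2 0.75). At the other end, after RPS27L, came RPS13 (log2 -0.54), the assembly-related paralog RPL7L1 (-0.24), RPS4X (-0.17) and RPL35 (-0.12). Of these, RPS4X, the X-linked small subunit gene, was 9260.5 against 10409.

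**Figure D3:**
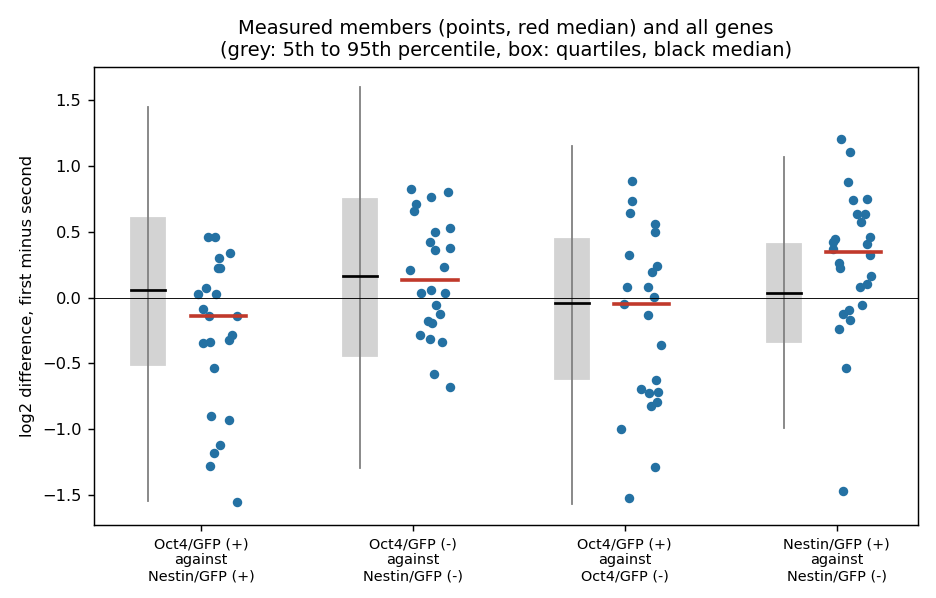
Log2 difference, first population minus second (y axis), of each measured member (points, red line at their median) in the 4 comparisons, beside all measured genes (grey box for the quartiles, thin line from the 5th to the 95th percentile, black line at the median). The members' median was 0.35 between the nestin populations, against 0.03 for all genes, and -0.14 between the GFP (+) populations, against 0.06.

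The direct comparison of the GFP (+) populations asks how Oct4 and nestin reporter cells differ. Of 28 members compared, 7 were past 2-fold lower in the Oct4/GFP (+) population (25%, against 15.4% of all genes) and 0 were higher (against 12.8%). All 7 were large subunit genes, which make up 24 of the 34 members and 16 of the 23 measured here. The median of the 23 measured members was -0.14 (range -1.55 to 0.46), against 0.06 over 4126 genes, with 9 above 0 and 14 below. On the values as deposited or with arrays centred on their medians, 20 members were past 2-fold lower (against 41.7% of all genes) and 0 higher (against 2.36%). The members' median was then -1.5, against -0.96 over all genes. Several of the 7 calls depended on the probe, as described next. With only the probes above background on both arrays, where a gene had one, 0 of 28 were higher (against 13.2% of all genes). Past 2-fold lower, 5 of 28 remained (against 15.3%). Of these, RPL10L, RPL15 and RPL28 had no such probe and were bounds.

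RPL22, known for binding a small RNA of Epstein-Barr virus, had the lowest mean over probes (log2 -1.55), which takes in a probe at the floor. Its first probe was 124 in Oct4/GFP (+) and 134 in Nestin/GFP (+) cells. Its second probe was under the limit in Oct4/GFP (+) cells, with a deposited intensity of 3, and 138 in Nestin/GFP (+) cells. The low value of the gene thus came from 1 of 2 probes, and the log2 difference on the probe above background on both arrays was -0.11.

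RPL4, which reaches into the exit tunnel of the ribosome, had 3 bright probes. The first was 955 in Oct4/GFP (+) and 1971 in Nestin/GFP (+) cells (log2 -1.05). The second was 758 and 8020.25 (log2 -3.40), and the third was 8522 and 5578.5 (log2 0.61). The third probe is therefore higher in the population in which the others are lower, and the mean log2 difference of -1.28 (2.43-fold) becomes 0.61 on the brightest probe and -0.22 without the second. That probe was the only one of 20 bright member probes (normalized intensity of 200 or more on each of the other 3 arrays) whose Oct4/GFP (+) value fell over 8-fold below the mean of the others. Over all genes 60 of 964 such probes did so on the Oct4/GFP (+) array, against 1 of 890, 2 of 914 and 0 of 894 on the Nestin/GFP (+), Oct4/GFP (−) and Nestin/GFP (−) arrays. The part of the array in the differences of the Oct4/GFP (+) cells was not tested.

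RPS13, a small subunit protein, had probes of opposite direction between the GFP (+) arrays. Its first probe was 329 in Oct4/GFP (+) and 1166 in Nestin/GFP (+) cells (log2 -1.82). Its second probe was 1340 and 612 (log2 1.13). On the Oct4/GFP (−) and Nestin/GFP (−) arrays the probes were nearly level, at 1309 and 1353 for the first and 1063 and 1115 for the second. RPL10, which joins the large subunit late in its assembly, likewise had probes at 0.90 and -0.29, and RPS24, mutated in Diamond-Blackfan anemia, at -0.64 and -0.01. The SD between probes of a member above background on both arrays was 1.64 on the log2 scale over 9 probes of 4 members, against 0.93 over 276 genes. For the nestin populations the same SD was 0.45 over 13 probes of 6 members, against 0.54 over 361 genes.

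**Figure D4:**
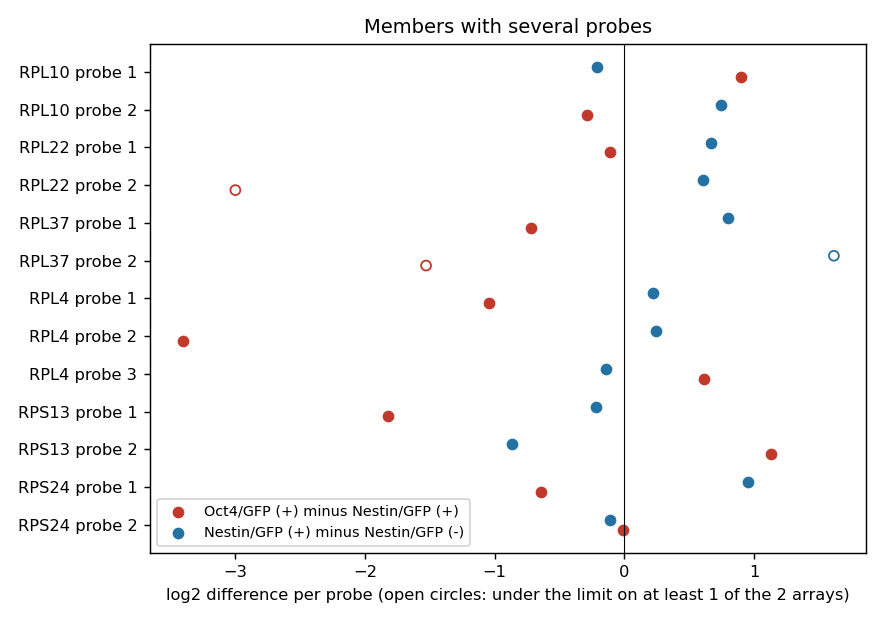
Log2 difference per probe (x axis) for members with several probes, between the GFP (+) populations and between the nestin populations, with open circles where the probe was under the limit on at least 1 of the arrays. RPL4 spans -3.40 to 0.61 and RPS13 -1.82 to 1.13 between the GFP (+) populations. Between the nestin populations RPL4 spans -0.145 to 0.24 and RPS13 -0.865 to -0.215. The probes of RPS24 (0.955 and -0.111) and RPL10 (-0.213 and 0.741) lie further apart there than those of RPS13.

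The other members past 2-fold in this comparison have 1 probe, except RPL37 and RPL10L. RPL29, a protein at the surface of the large subunit, was 120.5 in Oct4/GFP (+) and 274 in Nestin/GFP (+) cells (log2 -1.19, 2.27-fold lower). The Oct4/GFP (+) array was the lowest of the 4 for this gene, since the GFP (−) arrays read 346 and 219. RPL37 was 160.5 against 264.5 on its first probe and under the limit against 49.75 on its second, for a mean log2 difference of -1.12, and -0.72 on the first probe alone, which is under 2-fold.

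RPL15, RPL28 and RPL10L were under the limit in Oct4/GFP (+) cells. RPL15 had deposited intensities of 9 and 87 and was at least 3.27-fold lower, and RPL28 had 13 and 75 and was at least 2.85-fold lower. RPL10L, at 1 and 101 on its first probe, was at least 3.78-fold lower on that probe, while its second was under the limit on both arrays and bounds nothing. RPL28 stood at -0.67 on the log2 scale with a limit of 5 noise SD, and RPL15 and RPL10L had no fold with a limit of 10. Above 0 in this comparison, the highest were RPL26, a protein of the large subunit (592 and 431, log2 0.46), RPS16 (341 and 248.5, log2 0.46), RPL39L (log2 0.34), RPL10 (0.30), RPS4X (0.23) and RPL30 (0.23). None of these reached 1.5-fold. RPL30 was below 0 on its bright probe (log2 -0.29), and a dim probe over the limit on the Oct4/GFP (+) array alone moved its mean above it.

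Within the Oct4 line, Oct4/GFP (+) cells were set against Oct4/GFP (−) cells. Of 26 members compared, 4 were past 2-fold lower (15.4%, against 15.6% of all genes) and 0 were higher (against 8.47%). The median of the 23 measured members was -0.05 (range -1.52 to 0.89), against -0.04 over 3207 genes, and 11 were above 0 and 12 below. The share of lower members was thus close to that of all genes. The array scale sets the direction here, since on the values as deposited 13 members were higher (against 38.5% of all genes) and 0 lower (against 2.26%). The members' median was then 1.04, against 1.00 over all genes. The 4 were RPL29, RPS27L, RPL28 and RPL34.

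RPL29 was 120.5 in Oct4/GFP (+) and 346 in Oct4/GFP (−) cells (2.87-fold lower, log2 -1.52), and on the values as deposited its log2 difference was -0.39. RPL28 was under the limit against 49.75 (at least 2.88-fold lower) and RPL34 under the limit against 46.25 (at least 2.68-fold lower). As deposited their log2 differences were -0.25 and -0.17, and after a loess -0.84 and -0.70, so that both calls were lost. RPL4 lay just inside 2-fold with a mean log2 difference of -0.997, from probes at -0.67, -2.69 and 0.36, of which the second is the one that stood apart on the Oct4/GFP (+) array. RPL13 was 208 against 105.5 on its bright probe (log2 0.98), and its other probe was under the limit on both arrays. The highest means over probes were RPS15A at 666 against 360 (log2 0.89), RPL39L (0.73), RPS16 at 341 against 218 (0.65), RPL27A at 502 against 341 (0.56) and RPL13A (0.50). These are core proteins of either subunit, apart from the paralog RPL39L.

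The GFP (−) populations, compared as a reference for the reporter lines, had few members past 2-fold on the normalized values. Of 28 members compared, 1 was past 2-fold higher in Oct4/GFP (−) cells (3.57%, against 16.6% of all genes) and 0 were lower (against 9.69%). The higher one, RPL34, had deposited intensities of 18 and 8 and a bound of at least 2.85-fold on the normalized scale, and was without a fold on the values as deposited. The median of 24 measured members was 0.13 (range -0.68 to 0.83), against 0.16 over 3364 genes. On the values as deposited it was -1.75, against -1.68 over all genes. There 0 members were higher (against 0.203% of all genes) and 23 lower (against 65.5%). The highest measured were RPL8 at 4758.5 and 2686 (log2 0.83), RPL37 (0.80), RPL28 (0.77), RPL26 (0.71) and RPL29 (0.66). On its only probe above background on both arrays RPL37 was at 0.52. The lowest were RPL27A at 341 and 546.5 (log2 -0.68), RPS15A at 360 and 539.75 (-0.58), RPL35 (-0.34), RPS27L (-0.32) and RPS16 (-0.28). The 4 comparisons use each array in 2 of them, so their values are not independent of each other.

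A change of array scale moves every gene of an array together, so the family was also set against all genes under 13 ways of processing, 3 of which differ only by a factor per array and give the same relative value. Between the nestin populations the members' median minus that of all genes was 0.31 under the main processing and 0.21 to 0.47 over all 13. Between the GFP (+) populations it was -0.19, and -0.54 to -0.19 over all 13. In both the sign was the same in 13 of 13. For the Oct4 line it ran from -0.13 to 0.23 and for the GFP (−) populations from -0.23 to 0.04, with either sign. These relative values carry no test, since each population has 1 array.

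**Figure D5:**
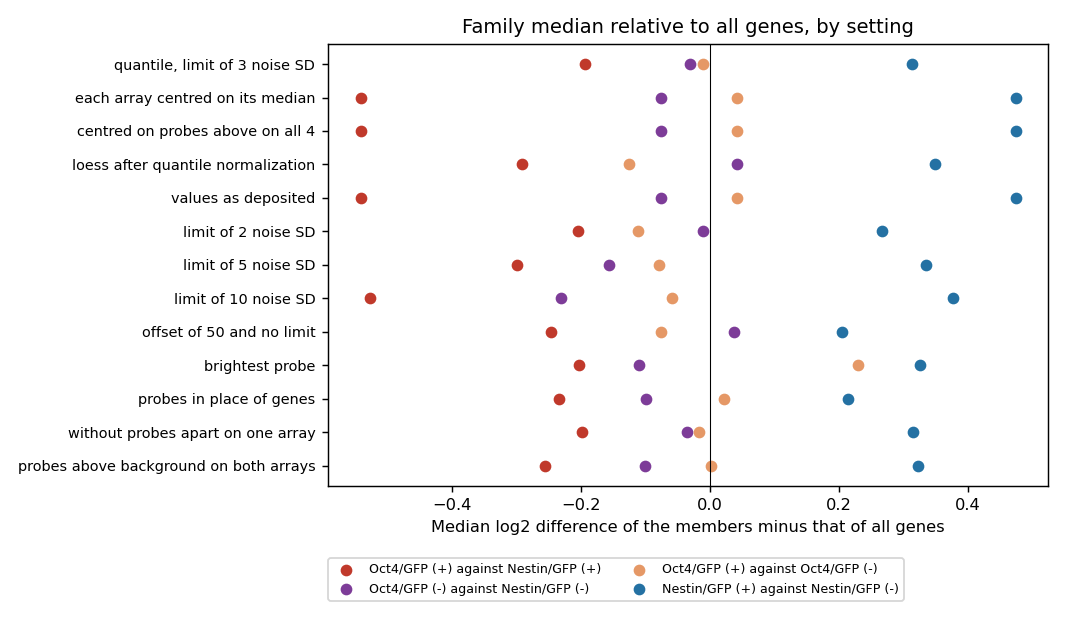
Median log2 difference of the measured members minus that of all measured genes (x axis) under 13 ways of processing (y axis), for the 4 comparisons. The nestin populations lie at 0.21 to 0.47 and the GFP (+) populations at -0.54 to -0.19, while the other comparisons have points on either side of 0.

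Genes that work with the ribosome were read beside the family from 3 lists. Of 10 TOP transcripts outside the family with a probe, mainly translation factors, none passed 2-fold between the nestin populations (median 0.08). Of all genes, 6.97% were higher and 5.48% lower past 2-fold there (median 0.035). EEF1B2, a subunit of the elongation factor exchange complex, was higher in the Oct4 line than in the nestin line by 2.37-fold among GFP (+) cells and by 4.41-fold among GFP (−) cells. HNRNPA1, an RNA-binding protein of splicing, was at least 13.8-fold lower in Oct4/GFP (+) cells, with 238 in Nestin/GFP (+) cells and 276 and 217 on the GFP (−) arrays. It was under the limit on the Oct4/GFP (+) array alone, the one on which 60 of 964 bright probes fell over 8-fold. These were the only genes of the list past 2-fold in those comparisons. Between the GFP (+) populations that is 10% higher and 10% lower, against 12.8% and 15.4% of all genes.

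Ribosome assembly factors, 26 of which have a probe, had a median of 0.41 over 15 measured genes between the nestin populations, against 0.035 over all genes. Of 18 compared, 1 was past 2-fold higher (5.56%, against 6.97% of all genes) and 0 were lower (against 5.48%). Between the GFP (+) populations the median of the assembly factors was -0.48 over 14 genes, against 0.06 over all genes. Past 2-fold, 0 of 17 compared were higher (against 12.8% of all genes) and 5 lower (29.4%, against 15.4%). The 5 were EIF6, which keeps the subunits apart (234 and 784, 3.35-fold), SBDS, which releases EIF6 (48.5 and 127.5, 2.63-fold), WDR43 (3.22-fold), EBNA1BP2 (at least 6.23-fold) and NOLA3, also known as NOP10 (at least 51.2-fold). NOLA3 was under the limit on the Oct4/GFP (+) array and at 834.5 to 1137 on the other 3, and the part of that array in these differences was not tested. Of the 70 mitochondrial ribosomal protein genes, which serve the separate ribosome of mitochondria, the median was -0.06 over 54 measured genes between the nestin populations and -0.03 over 45 between the GFP (+) populations. In the latter, of 59 compared, 4 were higher (6.78%, against 12.8% of all genes) and 18 lower (30.5%, against 15.4%) past 2-fold.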

How the data were processed

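Total RNA of 4 H1299 populations was labeled with Cy3 and hybridized to Phalanx Human OneArray arrays, 1 per population. The authors deposited intensities per probe on a linear scale, with a background already subtracted. The sources used here do not give their software or scaling. Symbols came from the platform annotation, which names 1 gene for 17397 of 30968 probes. The noise SD of an array was taken as the root mean square of all negative values. Values over 3 noise SD were above background, all were quantile-normalized over 4 arrays, those under the limit were set to the floor and log2 was taken. Levels of genes were means over the probes that passed the limit on 1 array or more. Past 2-fold means a log2 difference above 1 or below -1.

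The members, lists and tests were chosen with earlier results of these data known. Named were, per comparison, the 5 largest measured differences each way, every bound past 2-fold, members with several probes above background and paralogs, with other genes only from lists of TOP transcripts, ribosome assembly and mitochondrial ribosomal proteins, and cell type markers. No test compares 2 arrays. The additive fit used limma 3.58.1 in R 4.3.3 with Benjamini-Hochberg adjustment over 2853 genes. Tables were made in Python 3.11.15 (pandas 2.3.3, numpy 2.4.6), the loess with statsmodels 0.14.6 and the plots with matplotlib 3.10.9. The steps were tested on simulated data. Alternatives were other scalings, other limits (2, 5 or 10 noise SD), adding 50 before log2, the brightest probe, probes in place of genes, other thresholds, measured genes only and leaving out probes apart on 1 array. Averaging only the probes above background on both arrays, where a gene has one, was added after seeing the data. Start-site windows are from RefSeq (GRCh38.p14). The number of arrays limits the precision.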

Additional observations from a re-analysis of the deposited data

Results flagged for a closer look

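Of the 23 members above background on all 4 arrays, 4 are flagged. In these the mean differences over probes ran in opposite directions by over 1.5-fold in the 2 lines or GFP states. Each rests on 1 array per population, and none of these differences was tested. How many of all 2853 genes meet the same rule was not counted, so the 4 are not a result about the family. Signs were opposite between the lines in 53.5% of all genes. RPL37 was lower in GFP (+) cells of the Oct4 line (log2 -0.72) and higher in those of the nestin line (1.21), a difference of -1.93, and by the same arithmetic it was lower in the Oct4 line among GFP (+) cells (-1.12) and higher among GFP (−) cells (0.80), again -1.93. Its second probe was under the limit on the Oct4/GFP (+) and Nestin/GFP (−) arrays, and on the first alone the pairs were -0.44 and 0.80, and -0.72 and 0.52, so that 1 of each pair was under 1.5-fold. RPL36A, a large subunit protein, differed by -1.43 between the lines in its GFP difference (-0.80 and 0.63), from normalized intensities of 798 and 1386 in the Oct4/GFP (+) and (−) cells and 1519 and 979 in the Nestin/GFP (+) and (−) cells. For RPL22 the corresponding value was -1.36 (-0.72 and 0.64), and it came from the probe that was under the limit in Oct4/GFP (+) cells, since the other had 0.51 and 0.67. RPL29 differed by -1.85 between GFP states in its reporter difference (-1.19 in GFP (+) and 0.66 in GFP (−) cells).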

How the results depend on the processing

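The comparisons are given in the order GFP (+) populations, GFP (−) populations, Oct4 line and nestin line. The members' medians of -0.14, 0.13, -0.05 and 0.35 became -1.5, -0.58, 0.23 and 1.14 with arrays median-centred and -1.5, -1.75, 1.04 and 0.77 on the values as deposited, while the medians of all genes moved to -0.96, -0.51, 0.19 and 0.66 and to -0.96, -1.68, 1.00 and 0.30. On the brightest probe the Oct4 line median was 0.24. The numbers of members past 2-fold, 7, 1, 4 and 4, became 20, 23, 13 and 9 as deposited (0, 0, 13 and 8 of them higher), 11, 8, 15 and 10 at 1.5-fold, 0 in each at 4-fold, 2, 0, 2 and 2 at a limit of 10 noise SD, and 1, 0, 2 and 1 with an offset. Of all genes, 2.36%, 0.203%, 38.5% and 12.8% were higher as deposited and 41.7%, 65.5%, 2.26% and 4.72% lower. With arrays centred on the median the numbers of members were 20, 5 and 18 for the GFP (+), GFP (−) and nestin comparisons. Of all genes, 2.36%, 5.83% and 25.6% were then higher and 41.7%, 23.3% and 2.13% lower. With arrays centred on probes above background on all 4 the members numbered 2 each for the GFP (−) and nestin comparisons. Of all genes, 17.2% and 5.21% were then higher and 8.49% and 10.5% lower. For the first 3 comparisons the members numbered 4, 0 and 2 at a limit of 5 noise SD and likewise with measured genes only. Of all genes, 11.9%, 12.4% and 3.88% were higher and 11.8%, 5.25% and 13.2% lower at that limit. With measured genes only, 12.3%, 16.6% and 7.7% were higher and 11.5%, 9.63% and 13.5% lower. For the GFP (−) populations and the Oct4 line they were 3 and 8 at a limit of 2 noise SD, 0 and 2 after a loess, and 3 and 7 for probes in place of genes. Among named genes the direction of a measured difference turned for RPL4 between the GFP (+) populations (0.61 on the brightest probe). The sign also changed there for RPL10L (0.03) and RPL15 (0.24) at a limit of 10 noise SD. For RPL34 it changed between the GFP (−) populations (-0.22 as deposited). These values of RPL10L, RPL15 and RPL34 are without a fold and give no direction. For named genes, 43 other values fell within 2-fold. With only the probes above background on both arrays, where a gene had one, the numbers of members were 5, 1, 4 and 4, bounds included. Of all genes, 13.2%, 16.8%, 8.85% and 7.05% were then higher and 15.3%, 9.99%, 15.5% and 5.57% lower. Under this alternative, chosen after seeing the data, RPL22 (-0.11) and RPL37 (-0.72 and 0.80) fell within 2-fold. Signal over background limits the dim members, RPL10L, RPL15, RPL28, RPL34 and RPL7L1. No paired analysis was possible by replicate number because the populations share only 1, and the additive fit, with the line as a term beside GFP state, called no gene.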
